A study of Mus musculus with 6 samples.

Results

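Paraspeckles are nuclear bodies that assemble on the long non-coding RNA Neat1, and the genes described here are 9 genes of that body and of nuclear RNA processing: the non-coding RNAs Neat1 and Malat1, the paraspeckle protein genes Nono, Sfpq and Pspc1, and Tardbp, Ddx5, Ddx17 and Zrsr2. They were chosen by symbol, and all 9 were found among the 24421 gene rows of the count table. Counts were compared between lineage-negative, c-Kit-positive (LK) bone marrow cells of C57BL/6 mice with a knock-in of mutant ASXL1, named ASXL1-MT-KI, and those of wild type littermates. LK cells are haematopoietic stem and progenitor cells, and ASXL1 is a chromatin regulator recurrently mutated in human myeloid malignancies. There were 3 libraries of each genotype, the mice being 8 to 12 weeks of age, and the labels used here give neither the promoter that drives the knock-in nor how many animals made a library. The sex of the mice was not part of the comparison. The question put to the 9 genes is whether their RNA differs between the genotypes. All 9 passed the filter on low counts.

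Neat1 is retained in the nucleus and exists as a short and a long form that share their start. The long form is the scaffold on which the related proteins NONO, SFPQ and PSPC1 assemble, and NONO and SFPQ keep the RNA stable. Malat1 is an abundant RNA of nuclear speckles, where splicing factors are stored. TDP, the product of Tardbp, is an RNA-binding protein of paraspeckles that acts in splicing and in the choice between the 2 Neat1 forms. DDX5 and DDX17 are paralogous DEAD-box helicases that act in splicing, transcription and the nuclear step of microRNA processing. ZRSR2 recognises the 3' splice site of introns removed by the minor spliceosome, and its human gene is mutated in myelodysplastic syndromes.

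Libraries held 40462168 to 47579480 counts, and 13548 genes were tested. Progenitor markers were abundant, with Mpo at 571956 to 693513 counts and Kit at 15745 to 18380 counts in a library; of the 9 markers of this list Cd34 and Ptprc fell and Myb rose. Of the mature T cell markers Cd3g was at 0 counts in all 6 libraries, Cd3e and Cd8a had at most 3 counts, and Cd4 had 45 to 95 counts. Asxl1 was higher in ASXL1-MT-KI cells, at 320.1 ± 8.71 CPM, against 170.4 ± 5.43 CPM in wild type cells (SD, n = 3 each). CPM is the count after all libraries are scaled to a common total. Library number 3 of each genotype stood apart from numbers 1 and 2 in several of the genes below, so its values are given beside the results they touch.

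Among the 9 genes, Ddx5 and Zrsr2 fell in ASXL1-MT-KI cells, by 15.6% and 16.9%, and the other 7 did not pass the test. The adjusted p threshold was 0.05, and 16.0% of all tested genes passed it, 1042 lower and 1123 higher, so 2 of 9 is not far from the share of the whole table. Falls alone made up 7.69% of all tested genes and rises alone 8.29%. With total counts as the scaling, the table split into 767 lower and 1562 higher genes, and Ddx5 and Zrsr2 were again the members that passed. No member rose in edgeR, DESeq2 or limma-voom; 1 member, Tardbp, was higher at an unadjusted p under 0.05. With the replicate number as a block, 4 of the 9 passed, Nono, Ddx5 and Zrsr2 lower and Tardbp higher, where 30.5% of all tested genes passed. The 2 groups did not overlap in CPM for 4 of the 9 genes, as for 35.2% of all tested genes. The median log2 fold change of the 9 was -0.14, against 0.00 over all tested genes, and 7 of 9 were below 0. The median of the 9 was -0.08 with the replicate block and in limma-voom. With total counts it was -0.09, where the median over all tested genes was 0.05. It was -0.06 on removal of knock-in library 1, -0.03 on removal of wild type library 3 and -0.04 in the number 1 and 2 libraries alone. In size the changes were those of an ordinary gene: the median distance from 0 was 0.14 on the log2 scale for the 9 genes and 0.13 for all tested genes.

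**Figure D1:**
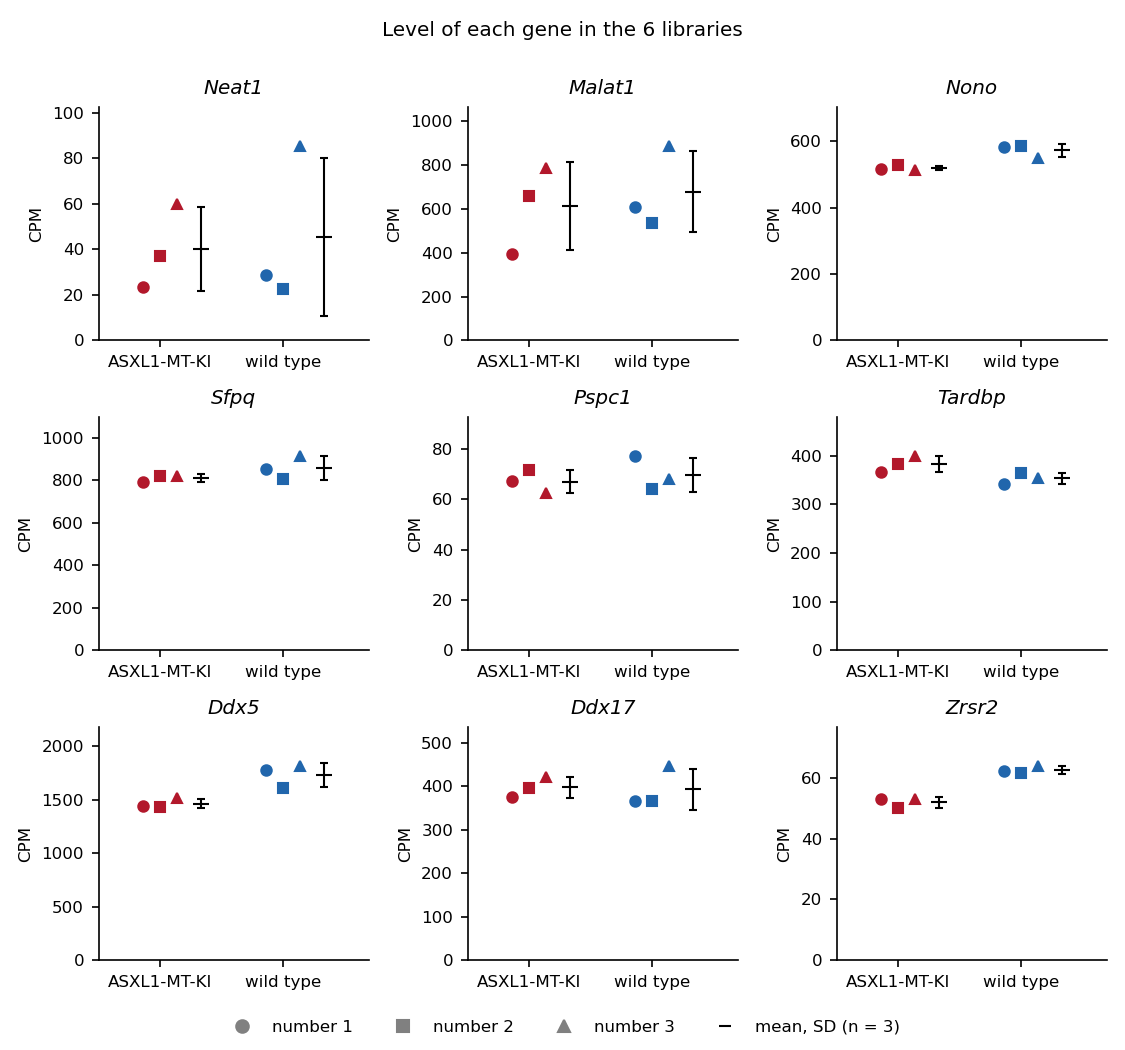
CPM of the 9 genes in each library, with ASXL1-MT-KI at the left of each panel and wild type at the right; point shapes give the library number and bars the mean and SD of 3 libraries. The groups are separate for Nono, Tardbp, Ddx5 and Zrsr2, and the number 3 libraries lie above the others for Neat1 and Malat1.

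Zrsr2, on chromosome X from 163935443 to 163958661 on the minus strand of GRCm38 (the assembly of mm10), was the member with the lowest p. It had 52.9, 49.9 and 53.0 CPM in ASXL1-MT-KI libraries 1 to 3, against 62.2, 61.4 and 63.9 CPM in wild type libraries 1 to 3. All 3 knock-in libraries were below all 3 wild type libraries, and the gap was wider than the spread within either group. The mean was 51.9 ± 1.79 CPM in ASXL1-MT-KI cells and 62.5 ± 1.25 CPM in wild type cells (SD, n = 3 each), a log2 fold change of -0.27 ± 0.051 (SE; adjusted p = 0.00831). This and all later p-values between genotypes are from edgeR's quasi-likelihood model, with Benjamini-Hochberg correction over all tested genes, unless another tool is named. Within the numbers the ASXL1-MT-KI level was 0.851, 0.812 and 0.830 times the wild type level. The call held when any 1 library was left out, with adjusted p between 0.0153 and 0.0469. Between libraries of a genotype the spread of Zrsr2 was small, at an SD of 0.041 in log2 CPM, lower than in all but 7.89% of tested genes.

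Zrsr1, an imprinted retrogene paralog of Zrsr2 on chromosome 11, was at 11.5 ± 0.209 CPM in ASXL1-MT-KI cells and 12.0 ± 1.22 CPM in wild type cells (SD, n = 3 each; log2 fold change -0.07, adjusted p = 0.674). Counts of the 2 paralogs were also set against each other within each library, which removes the scaling. The Zrsr2/Zrsr1 ratio was 4.71, 4.30 and 4.58 in ASXL1-MT-KI libraries 1 to 3, against 5.80, 5.01 and 4.86 in wild type libraries 1 to 3. The groups did not overlap, and the exact two-sided permutation test gave p = 0.1, the smallest that 3 against 3 libraries allow (0.25 after Benjamini-Hochberg adjustment over 5 ratios, which were chosen after the values were seen). How reads shared by paralogs were counted is not given in the sources used here.

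Ddx5, on chromosome 11 from 106780355 to 106789185 on the minus strand, was the most abundant member. It had 1446, 1437 and 1519 CPM in ASXL1-MT-KI libraries 1 to 3, against 1785, 1608 and 1818 CPM in wild type libraries 1 to 3. All knock-in values lay below all wild type values, and the wild type libraries were the more spread. The means were 1467 ± 45.0 CPM in ASXL1-MT-KI cells and 1737 ± 113 CPM in wild type cells (SD, n = 3 each), and the log2 fold change was -0.24 ± 0.056 (SE; adjusted p = 0.0175). Within the numbers, the ASXL1-MT-KI level was 0.810, 0.893 and 0.835 times the wild type level. Ddx5 missed the threshold in 3 of the 6 fits that left out a library: those lacking knock-in library 1 (adjusted p = 0.0584), knock-in library 2 (adjusted p = 0.0705) or wild type library 1 (adjusted p = 0.0696). The microRNA gene Mir3064 lies within Ddx5 on the same strand and had 197 to 333 counts in a library, against 62997 to 81913 for Ddx5.

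Its paralog Ddx17, on chromosome 15 from 79527736 to 79546741 on the minus strand, did not pass. It had 375, 396 and 422 CPM in ASXL1-MT-KI libraries 1 to 3, against 366, 366 and 447 CPM in wild type libraries 1 to 3. The ranges overlapped, and number 3 was the highest library in each genotype. The means were 398 ± 23.7 CPM in ASXL1-MT-KI cells and 393 ± 46.7 CPM in wild type cells (SD, n = 3 each; log2 fold change 0.02 ± 0.083, SE; adjusted p = 0.914). The sign of this small difference turned on removal of knock-in library 3, wild type library 1 or wild type library 2 (-0.03 in each case). Ddx5 outnumbered Ddx17 in counts by 3.85, 3.63 and 3.60 times in ASXL1-MT-KI libraries 1 to 3, against 4.87, 4.40 and 4.07 times in wild type libraries 1 to 3. The ratio was 3.69 ± 0.141 in ASXL1-MT-KI cells and 4.45 ± 0.404 in wild type cells (SD, n = 3 each), lower by 0.26 on the log2 scale, with no overlap. The exact two-sided permutation p was again 0.1, the smallest possible, and 0.25 after adjustment over the 5 ratios.

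**Figure D2:**
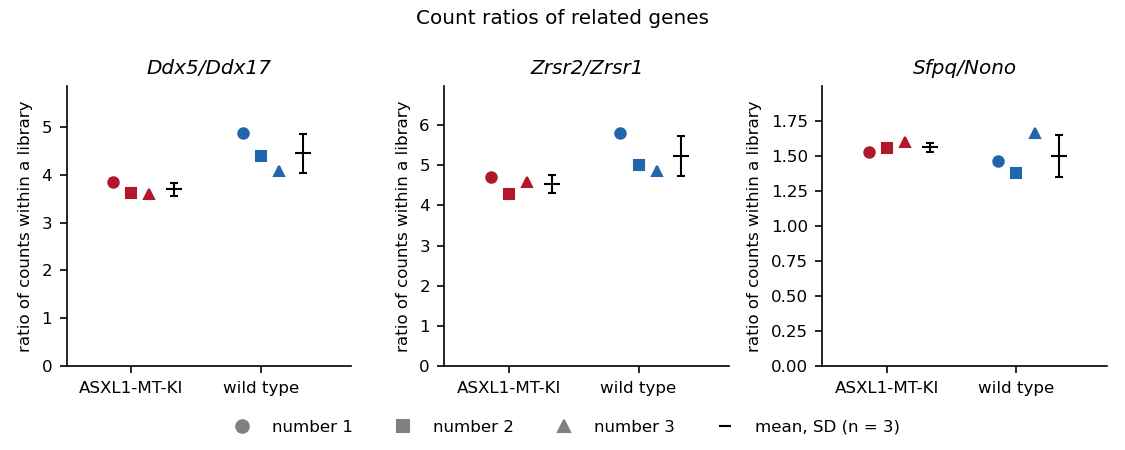
Ratio of the counts of related genes within each library for Ddx5 over Ddx17, Zrsr2 over Zrsr1 and Sfpq over Nono, with ASXL1-MT-KI at the left, library numbers as point shapes, and the mean and SD of 3 libraries as bars. The first 2 ratios do not overlap between genotypes, while Sfpq over Nono does.

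The promoters of the helicase pair and of Zrsr2 are shown because they belong to the 2 members that fell and to the paralog that did not pass. Each is the 250 bases before the start of transcription from RefSeq (GRCm38.p6), 5' to 3' on the gene's strand. Where several starts are listed, the one nearest to the start of GENCODE's principal transcript was taken. Capitals mark matches on either strand to the letters of 5 motifs: the CCAAT box, the TATA box (searched as TATAAA), the GC box (GGGCGG), the ETS core (CCGGAAG) and the core of the cAMP response element (TGACG).
Ddx5 promoter, chr11:106788495-106788744, strand minus: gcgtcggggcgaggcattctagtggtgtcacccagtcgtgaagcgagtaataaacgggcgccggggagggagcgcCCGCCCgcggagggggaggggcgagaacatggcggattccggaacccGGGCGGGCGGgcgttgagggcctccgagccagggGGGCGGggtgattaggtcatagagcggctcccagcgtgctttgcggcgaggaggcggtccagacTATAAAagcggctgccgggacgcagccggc
Ddx17 promoter, chr15:79546742-79546991, strand minus: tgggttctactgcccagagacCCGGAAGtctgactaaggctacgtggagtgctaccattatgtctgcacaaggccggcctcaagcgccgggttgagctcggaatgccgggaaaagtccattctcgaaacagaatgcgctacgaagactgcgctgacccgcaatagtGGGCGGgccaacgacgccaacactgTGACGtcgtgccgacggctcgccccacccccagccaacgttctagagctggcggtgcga
Zrsr2 promoter, chrX:163958667-163958916, strand minus: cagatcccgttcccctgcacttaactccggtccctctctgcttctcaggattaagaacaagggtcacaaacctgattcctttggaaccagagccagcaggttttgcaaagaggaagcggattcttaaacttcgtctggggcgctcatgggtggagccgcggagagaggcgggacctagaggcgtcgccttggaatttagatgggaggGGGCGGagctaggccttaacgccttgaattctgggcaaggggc
The Ddx5 window held the GC box at 4 places, 2 of them overlapping, and the TATA box with its first base 30 bases before the start. The Ddx17 window held the GC box, the ETS core and the cAMP response element core once each, and the Zrsr2 window held the GC box once. Of 32851 such windows from all genes, 32.7% held the GC box, 12.4% the TATA box, 6.91% the ETS core, 17.8% the cAMP response element core and 33.8% the CCAAT box. A match describes the letters only. The GC box thus stands before both of the genes that fell and before Ddx17, which did not pass. Among the other members with a window, those of Tardbp and Pspc1, which did not pass either, also held it. The windows of Nono, Sfpq and Malat1 did not.

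The 3 genes of the paraspeckle protein family, which share an arrangement of RNA-binding domains and pair with each other, differed little between genotypes. Nono, on chromosome X from 101429318 to 101448591, had 517, 528 and 514 CPM in ASXL1-MT-KI libraries 1 to 3, against 583, 586 and 549 CPM in wild type libraries 1 to 3. The groups did not overlap. The means were 519 ± 7.09 CPM in ASXL1-MT-KI cells and 573 ± 20.3 CPM in wild type cells (SD, n = 3 each), with a log2 fold change of -0.14 ± 0.045 (SE; adjusted p = 0.0651). The value missed the threshold in edgeR without a block and was past it in DESeq2 (adjusted p = 0.044), with the replicate block (adjusted p = 0.0109), on removal of wild type library 3 (adjusted p = 0.0234) and in a fit of the number 1 and 2 libraries alone (adjusted p = 0.0333).

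Sfpq, on chromosome 4 from 127021324 to 127037013, had 790, 820.0 and 820.3 CPM in ASXL1-MT-KI libraries 1 to 3, against 852, 805 and 914 CPM in wild type libraries 1 to 3. Wild type library 2 fell within the knock-in range, so the groups overlapped (log2 fold change -0.08 ± 0.054, SE; adjusted p = 0.351). Pspc1, on chromosome 14 from 56720710 to 56778316, had 67.3, 71.4 and 62.3 CPM in ASXL1-MT-KI libraries 1 to 3, against 77.1, 64.0 and 67.9 CPM in wild type libraries 1 to 3. Its groups overlapped in part, with a log2 fold change of -0.06 ± 0.078 (SE, adjusted p = 0.674). The sign turned, to 0.02, on removal of wild type library 1. The Sfpq/Nono count ratio was 1.53, 1.55 and 1.60 in ASXL1-MT-KI libraries 1 to 3, against 1.46, 1.37 and 1.66 in wild type libraries 1 to 3 (exact two-sided permutation p = 0.5). The Pspc1/Nono ratio was 0.129 ± 0.00716 in ASXL1-MT-KI cells and 0.122 ± 0.0117 in wild type cells (SD, n = 3 each; exact two-sided permutation p = 0.5). Both ratios overlapped between genotypes, and both came to 0.625 after adjustment over the 5 ratios.

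Tardbp, on chromosome 4 from 148612382 to 148627019, had 366, 384 and 400 CPM in ASXL1-MT-KI libraries 1 to 3, against 341, 365 and 355 CPM in wild type libraries 1 to 3. It was the member whose knock-in libraries all lay above the wild type libraries, though knock-in library 1 and wild type library 2 were nearly level. The means were 383 ± 16.7 CPM in ASXL1-MT-KI cells and 354 ± 11.6 CPM in wild type cells (SD, n = 3 each; log2 fold change 0.12 ± 0.050, SE; adjusted p = 0.149). With the replicate block the value was past the threshold (log2 fold change 0.12, adjusted p = 0.0325). Masp2 overlaps Tardbp on the opposite strand with 1817 bases of exon, and had 1 to 8 counts in a library, against 14396 to 17587 for Tardbp.

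**Figure D3:**
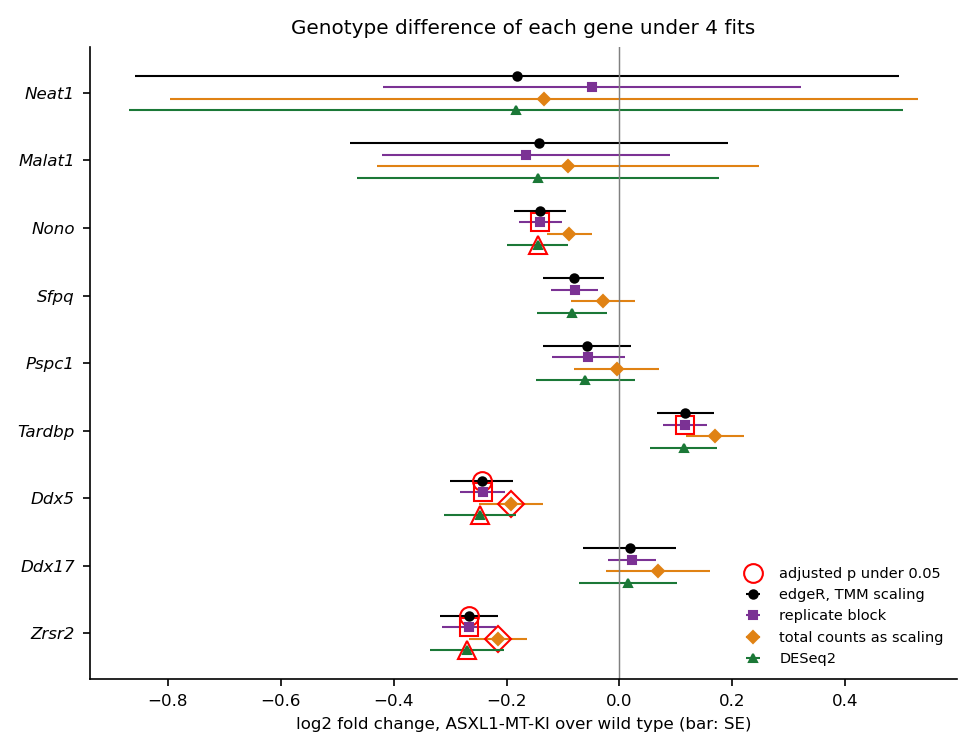
Log2 fold change of the 9 genes, ASXL1-MT-KI over wild type, with its SE as a bar, in edgeR with TMM scaling, with the replicate block, with total counts as scaling and in DESeq2; red outlines mark an adjusted p under 0.05. Ddx5 and Zrsr2 are outlined in all 4 fits, Nono in 2 and Tardbp in 1, while Neat1 and Malat1 have the widest bars.

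Neat1 and Malat1 lie near each other on chromosome 19, both on the minus strand, Neat1 from 5824708 to 5845478 and Malat1 from 5795690 to 5802672, with 22035 bases and 1 other GENCODE gene between them. Neither differed detectably between genotypes, and both differed between libraries of 1 genotype. Neat1 had 23.5, 37.2 and 59.8 CPM in ASXL1-MT-KI libraries 1 to 3, against 28.9, 22.4 and 85.4 CPM in wild type libraries 1 to 3. Number 3 was the highest library in each genotype, and the groups overlapped. The means were 40.2 ± 18.3 CPM in ASXL1-MT-KI cells and 45.6 ± 34.6 CPM in wild type cells (SD, n = 3 each). The log2 fold change was -0.18 with an SE of 0.68 (adjusted p = 0.897), so a change of the size seen for Ddx5 or Zrsr2 could not have been detected. The sign depended on single libraries: the log2 fold change was 0.64 on removal of wild type library 3, 0.09 on removal of knock-in library 1, and 0.24 in the number 1 and 2 libraries alone. Within the numbers, Neat1 in ASXL1-MT-KI cells was 0.812, 1.66 and 0.700 times its wild type level.

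Malat1 had 396, 659 and 789 CPM in ASXL1-MT-KI libraries 1 to 3, against 609, 538 and 888 CPM in wild type libraries 1 to 3. As for Neat1, number 3 was the highest library of each genotype and the ranges overlapped. The means were 615 ± 200 CPM in ASXL1-MT-KI cells and 678 ± 185 CPM in wild type cells (SD, n = 3 each; log2 fold change -0.14 ± 0.33, SE; adjusted p = 0.829). Its sign, too, turned on removal of knock-in library 1 (0.09) or wild type library 3 (0.10). The Neat1/Malat1 count ratio was 0.0638 ± 0.0104 in ASXL1-MT-KI cells and 0.0617 ± 0.0299 in wild type cells (SD, n = 3 each; exact two-sided permutation p = 0.8, also 0.8 after adjustment over the 5 ratios). Counts per gene do not separate the short from the long form of Neat1, and the sources used here do not say which form was counted.

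The promoter of Malat1 is shown in the same way as those above, since Malat1 was, after Neat1, the member that varied most between libraries.
Malat1 promoter, chr19:5802673-5802922, strand minus: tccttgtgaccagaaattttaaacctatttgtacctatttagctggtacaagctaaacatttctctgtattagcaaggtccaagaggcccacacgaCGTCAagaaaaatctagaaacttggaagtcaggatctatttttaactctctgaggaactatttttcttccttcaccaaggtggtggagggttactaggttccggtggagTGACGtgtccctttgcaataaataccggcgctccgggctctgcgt
It held the cAMP response element core at 2 places, 154 and 45 bases before the start, the first on the opposite strand, and none of the other 4 motifs.

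The spread of Neat1 between libraries of a genotype was an SD of 0.87 in log2 CPM, above that of 99.0% of tested genes, and that of Malat1 was 0.45, above 92.9%. For the other 7 members this SD ran from 0.039 (Nono) to 0.132 (Ddx17), against a median of 0.106 over all tested genes. The non-coding members were thus the most spread of the 9 in the same 6 libraries. Number 3 of ASXL1-MT-KI had 1.97 times the mean Neat1 level of numbers 1 and 2, and number 3 of wild type 3.33 times. For Malat1 the excess of number 3 was 0.63 on the log2 scale in each genotype. In ASXL1-MT-KI the mean of numbers 1 and 2 was lowered by library 1, at 396 CPM. Libraries 2 and 3 of that genotype had 659 and 789 CPM. Of all tested genes, 1.39% were at least 1.5 times as high in number 3 as in the mean of numbers 1 and 2 in both genotypes, a description of these libraries with no test.

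Other genes moved with Neat1 and Malat1 across the libraries. The search covered 11634 genes with a mean of at least 50 counts and used the root mean square difference of log2 CPM over the 6 libraries, each gene centred on its own mean. Nearest to Neat1 were Angpt2 (0.19), Sele (0.23), Gm20199 (0.23), Kcnq1ot1 (0.24) and Gdap10 (0.27). Of these Kcnq1ot1, a nuclear antisense RNA that silences an imprinted domain, had 17.2, 35.9 and 49.9 CPM in ASXL1-MT-KI libraries 1 to 3, against 23.4, 22.2 and 51.2 CPM in wild type libraries 1 to 3. Nearest to Malat1 were A930013F10Rik (0.08), Scml4 (0.09), Mir17hg (0.11), Ppm1e (0.11) and Rap1gap2 (0.13). Mir17hg, the primary transcript of a microRNA cluster, had 7.15, 10.8 and 12.5 CPM in ASXL1-MT-KI libraries 1 to 3, against 9.09, 8.35 and 16.2 CPM in wild type libraries 1 to 3. The group means of the other 8 ran from 1.28 to 5.43 CPM, and none of the 10 passed the test between genotypes in edgeR. Malat1 was number 29 in nearness to Neat1, but Neat1 was number 6061 in nearness to Malat1. The difference between the pair was 0.40, against 0.38 for the variation of Malat1 itself and 0.71 for that of Neat1.

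Immediate early genes, the transcription factors and feedback regulators first induced by a stimulus, also stood apart in number 3, mostly on the low side. Fos had 1212, 1396 and 534 CPM in ASXL1-MT-KI libraries 1 to 3, against 1237, 1210 and 397 CPM in wild type libraries 1 to 3 (adjusted p = 0.909 between genotypes). Of 23 tested immediate early genes, 16 were lower in number 3 than in the mean of numbers 1 and 2 in both genotypes, and 2 were higher in both. Of 12 heat shock genes 4 were lower in both and 0 higher in both, and of 29 cytosolic ribosomal protein genes 19 were lower in both and 0 higher in both. Some lists of RNA processing genes also leaned low: 24 of 31 other DEAD-box helicases were lower in both and 3 higher in both. For 23 minor spliceosome genes these counts were 13 and 5, and for 22 microprocessor and RNA end genes 13 and 1. The 28 other paraspeckle proteins did not lean low, with counts of 11 and 10. The median log2 difference of number 3 was -0.09 in ASXL1-MT-KI and -0.08 in wild type for the helicases. For the immediate early genes it was -0.25 and -0.31. Of 18 listed long non-coding RNAs other than Neat1 and Malat1, 7 were higher in number 3 of both genotypes and 6 lower in both. Of all tested genes, 35.9% were higher and 33.9% lower in number 3 of both genotypes. The long non-coding RNAs and the other paraspeckle proteins were thus near the shares of the whole table. The 4 of 12 heat shock genes lower in both were also near its share of lower genes. The part of any of these in the Neat1 and Malat1 values was not tested.

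**Figure D4:**
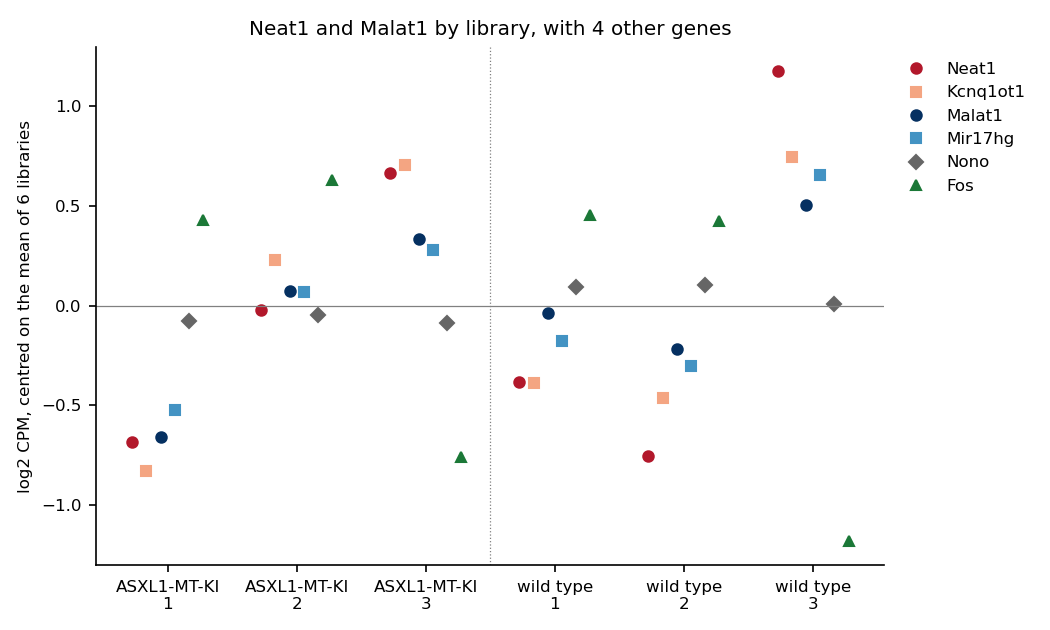
Log2 CPM of Neat1, Malat1, Kcnq1ot1, Mir17hg, Nono and Fos in each library, centred on each gene's mean over the 6 libraries, with ASXL1-MT-KI at the left and wild type at the right. In number 3 of both genotypes the 4 non-coding RNAs shown are above their mean and Fos is below it, while Nono stays near 0. Kcnq1ot1 and Mir17hg were picked for their nearness to Neat1 and to Malat1, so their likeness was set by that choice. Fos was added after its values were seen. Of the 18 listed long non-coding RNAs, 7 were higher and 6 lower in number 3 of both genotypes.

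Levels of different genes were compared per kilobase of exon, as the union of GENCODE exons (lengths of 4.38 to 20.8 kb). In ASXL1-MT-KI cells the level was 254 ± 7.79 CPM per kb for Ddx5, 171 ± 3.69 for Sfpq, 119 ± 1.62 for Nono and 88.0 ± 28.7 for Malat1. In wild type cells the same genes were at 301 ± 19.6, 181 ± 11.5, 131 ± 4.64 and 97.2 ± 26.5 CPM per kb (SD, n = 3 in each group). Next came Ddx17, at 52.1 ± 3.10 CPM per kb in ASXL1-MT-KI cells and 51.4 ± 6.11 in wild type cells, and Tardbp, at 49.2 ± 2.14 in ASXL1-MT-KI cells and 45.3 ± 1.49 in wild type cells (SD, n = 3 each). Pspc1 stood at 11.7 ± 0.792 CPM per kb in ASXL1-MT-KI cells and 12.2 ± 1.18 in wild type cells (SD, n = 3 each). Zrsr2 was at 7.22 ± 0.249 CPM per kb in ASXL1-MT-KI cells and 8.69 ± 0.173 in wild type cells, and Neat1 at 1.93 ± 0.883 in ASXL1-MT-KI cells and 2.19 ± 1.67 in wild type cells (SD, n = 3 each). Over all 6 libraries the ranges of Malat1 and Nono overlapped, as did those of Malat1 and Ddx17 and of Ddx17 and Tardbp. The other neighbours in this order did not overlap. The order depends on the exons assigned to each gene, and most of the length of Neat1 belongs to its long form alone.

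The other genes of the same processes were read from the same test. In the list of 28 other paraspeckle proteins 4 fell and 0 rose in edgeR, with a median log2 fold change of -0.06, against 0.00 over all tested genes. Cirbp, which encodes a cold-inducible RNA-binding protein, was at 35.9 ± 5.34 CPM in ASXL1-MT-KI cells and 52.0 ± 6.34 CPM in wild type cells (SD, n = 3 each; log2 fold change -0.53, adjusted p = 0.0196). Matr3, which encodes a nuclear matrix protein, was at 323 ± 6.32 CPM in ASXL1-MT-KI cells and 369.6 ± 18.8 CPM in wild type cells (SD, n = 3 each; log2 fold change -0.20, adjusted p = 0.0277). At an unadjusted p under 0.05, which 14.2% of all tested genes met as lower and 16.2% as higher, 8 were lower and 1 was higher, DESeq2 called 7 lower and 0 higher, and limma-voom 4 and 0. With the replicate block 9 were lower and 1 higher, and with total counts 2 lower and 1 higher. For this and the lists below, the shares of all tested genes in the main fit were 7.69% lower and 8.29% higher. With the block they were 13.8% lower and 16.7% higher. In DESeq2 17.6% passed in either direction. The number 1 and 2 libraries alone gave 2 lower. Removal of knock-in library 1 or 3 gave 2 lower, removal of knock-in library 2 or wild type library 1 gave 1. In the main fit 2165 of 13548 tested genes passed. Without knock-in library 2 it was 1143 of 13775, and without wild type library 1 it was 1128 of 13672.

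Among the 18 tested long non-coding RNAs of a further list, 2 fell and 0 rose in edgeR and limma-voom (at an unadjusted p under 0.05, 4 lower and 2 higher; in DESeq2, 2 lower and 1 higher), with a median of -0.06. Both that fell host small nucleolar RNAs, as do other genes of this list that did not pass, such as Snhg3 (-0.14) and Snhg5 (0.06). Snhg1 was at 113 ± 2.64 CPM in ASXL1-MT-KI cells and 143 ± 4.70 CPM in wild type cells (SD, n = 3 each; log2 fold change -0.34 ± 0.048, SE; adjusted p = 0.00181). Snhg6 was at 24.6 ± 0.819 CPM in ASXL1-MT-KI cells and 29.1 ± 0.934 CPM in wild type cells (SD, n = 3 each; log2 fold change -0.24, adjusted p = 0.0296). Meg3, an imprinted RNA, had a log2 fold change of 0.94 at under 1 CPM (adjusted p = 0.0904), and Gas5, another snoRNA host, one of -0.15 (adjusted p = 0.148). With the replicate block 3 were lower and 2 higher, and with total counts 1 was lower.

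Of 31 other DEAD-box helicases, 1 fell and 0 rose in edgeR, DESeq2 and limma-voom, and at an unadjusted p under 0.05, 5 were lower and 0 higher. The helicase gene that fell was Ddx3x, which acts in translation initiation, at 679 ± 20.6 CPM in ASXL1-MT-KI cells and 816 ± 60.9 CPM in wild type cells (SD, n = 3 each; log2 fold change -0.27 ± 0.059, SE; adjusted p = 0.015). Ddx54 (-0.13, adjusted p = 0.112), Ddx10 (-0.17, adjusted p = 0.123) and Ddx21 (-0.15, adjusted p = 0.138), helicases of ribosome assembly, did not pass. The fold change was below 0 in 26 of the 31, against 49.8% of all tested genes. The median was -0.07, against 0.00 over all tested genes. With total counts it was -0.01, against 0.05 over all tested genes. With the replicate block 6 were lower, and 4 on removal of wild type library 3 or of both number 3 libraries. On removal of knock-in library 2 there were 0.

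The list of 23 minor spliceosome and 3' splice site genes had 1 fall and 0 rises in edgeR, DESeq2 and limma-voom (2 and 0 at an unadjusted p under 0.05), with a median of -0.06. Sf3b1, a branch site factor shared by both spliceosomes, was at 628 ± 3.43 CPM in ASXL1-MT-KI cells and 707 ± 24.3 CPM in wild type cells (SD, n = 3 each; log2 fold change -0.17, adjusted p = 0.0303). No gene of the list passed with total counts, or on removal of any 1 of the libraries other than wild type library 3; on removal of that library 2 passed. Rbm48 (-0.20, adjusted p = 0.082), Sf3b6 (-0.14, adjusted p = 0.181) and Phf5a (0.14, adjusted p = 0.203) did not pass, and with the replicate block 3 genes were lower and 1 higher. Of 22 genes for the microprocessor and for nuclear RNA ends, 0 passed in edgeR, DESeq2 and limma-voom (2 lower and 3 higher at an unadjusted p under 0.05), and 3 were higher and 2 lower with the replicate block. Rpp14 (0.19, adjusted p = 0.105) and Rpp38 (0.51, adjusted p = 0.118) encode subunits of ribonuclease P, the enzyme that cuts the 3' end of Malat1, and Exosc10 (-0.14, adjusted p = 0.125) a nuclease of the nuclear exosome.

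Beside these lists, 10 of 23 immediate early genes fell and 0 rose in edgeR and limma-voom (13 lower and 0 higher at an unadjusted p under 0.05; 12 lower and 0 higher in DESeq2), with a median of -0.52. The orphan nuclear receptor genes Nr4a2 (-1.56) and Nr4a1 (-1.29), the zinc finger factor gene Egr3 (-1.80) and the stress gene Gadd45b (-1.02) had the lowest p. Of all tested genes 7.69% fell and 8.29% rose in edgeR. None of the 12 heat shock genes passed in edgeR, DESeq2 or limma-voom (2 lower and 0 higher at an unadjusted p under 0.05), nor did any of 29 ribosomal protein genes (0 in either direction at that level). The median log2 fold change was -0.09 for the heat shock genes, with 9 of 12 below 0. For the ribosomal protein genes it was -0.06, with 29 of 29 below 0, against 49.8% of all tested genes. A small shift below 0 was thus not particular to the RNA processing lists. The part of the immediate early genes in the Ddx5 and Zrsr2 values was not tested.

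**Figure D5:**
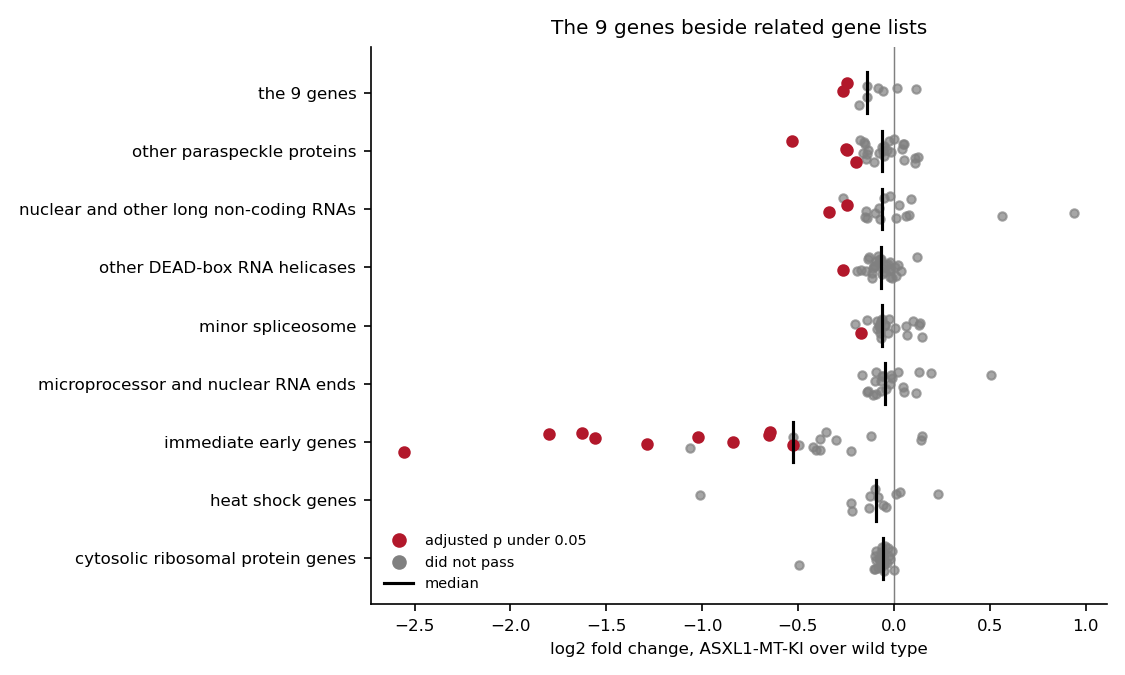
Log2 fold change, ASXL1-MT-KI over wild type, of each tested gene in the 9 genes and 8 related lists; red points passed at an adjusted p under 0.05 and black bars are medians. The immediate early genes reach the lowest values, with 10 of 23 lower. The medians of the RNA processing lists lie between -0.07 and -0.05, beside -0.06 for the ribosomal protein genes and -0.09 for the heat shock genes.

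Among progenitor markers, Cd34 (log2 fold change -0.31, adjusted p = 0.00449) and Ptprc (-0.36, adjusted p = 0.0195) fell and Myb (0.20, adjusted p = 0.0174) rose, and the other 6 did not pass. Markers of other cells also differed between the groups. Marker sums and means here are CPM scaled by total counts alone, without the TMM factors used elsewhere. The summed level of 3 mature erythroid markers was 34.2 to 37.4 CPM in ASXL1-MT-KI libraries and 16.7 to 27.1 CPM in wild type libraries, and 1 of the 3 rose. That of 4 monocyte and macrophage markers was 720.0 to 815 CPM in ASXL1-MT-KI libraries and 650.2 to 678 CPM in wild type libraries. Most of that sum was Ly6c2, which rose (log2 fold change 0.28, adjusted p = 0.0174), while Csf1r (0.03), Adgre1 (-0.03) and Cd14 (-0.64, adjusted p = 0.0783) did not pass. That of 3 B cell markers was 1.15 to 1.43 CPM in ASXL1-MT-KI libraries and 2.01 to 3.17 CPM in wild type libraries, and 1 of the 2 tested fell. The sums of 4 endothelial and stromal markers only just did not overlap, at 89.4 to 94.77 CPM in ASXL1-MT-KI libraries and 94.80 to 113 CPM in wild type libraries. Nearly all of that sum was Pecam1, with a mean of 97.2 CPM over the 6 libraries, which fell (log2 fold change -0.22, adjusted p = 0.0421). Cdh5, Col1a1 and Cxcl12 had means of 0.22, 0.48 and 0.62 CPM. Cdh5 and Cxcl12 did not pass, and Col1a1 was not tested. The sums of 5 neutrophil markers (56.6 to 95.6 CPM in ASXL1-MT-KI libraries, 38.1 to 82.2 CPM in wild type libraries) and of 3 mast cell and basophil markers (73.1 to 133 CPM in ASXL1-MT-KI libraries, 99.9 to 144 CPM in wild type libraries) overlapped. The part of these markers and cells in the Ddx5 and Zrsr2 values was not tested. In bulk RNA a change in the share of a cell type cannot be told apart from a change of RNA per cell.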

How the data were processed

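RNA sequencing counts of 3 ASXL1-MT-KI and 3 wild type LK libraries were used. The labels' protocols give 200 ng of RNA input, a library kit that does not mark strand, and paired ends of 124 bp. HISAT2 2.0.4 and mm10 come from the submitters' processing notes. Counting tool, annotation and treatment of shared reads are not given in these sources. The table deposited by the authors holds unnormalized whole-number counts for each gene symbol. From it edgeR 4.0.16 in R 4.3.3 computed TMM-scaled CPM (factors 0.972 to 1.03) after filterByExpr with a minimum of 10 counts, and a robust quasi-likelihood test with genotype as the only term, Benjamini-Hochberg adjusted over 13548 genes. SE was taken from the estimate and its F statistic. The named genes are the 9 members, the 4 with the lowest p of a list, the 5 nearest in pattern to Neat1 and to Malat1, and Zrsr1 and Fos, added after their values were seen. Some genes that the rule names are not reported here. Members and lists were chosen with earlier results of these data known. Alternatives were a replicate block, DESeq2 size factors, total counts, DESeq2 1.42.0, limma-voom 3.58.1, 2 other filters, leaving out each library and, added after seeing the data, numbers 1 and 2 only. The test was checked on simulated data. Figures used matplotlib 3.10.9, and positions are those of GENCODE M21, whose build GRCm38 is mm10.

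Deviations from the group mean correlated across genes between same-numbered libraries at 0.238, 0.144 and 0.361, all over 0.1. The numbers, which come from the titles, may therefore pair the libraries. A fit with the number as a block is given for this reason beside the main fit, which leaves the pairing out. ASXL1-MT-KI 1 and wild type 2 correlated at 0.157, above the 0.144 of the number 2 libraries, so the correlations do not settle the pairing. No label says what a number marks. No libraries held identical values. The series text calls the experiments independent, without saying whether a library was 1 animal.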

Additional observations from a re-analysis of the deposited data

How the results depend on the processing

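With the replicate block 4132 genes passed in place of 2165, and 4 of the 9 members in place of 2: Nono (log2 fold change -0.14) and Tardbp (0.12) were added. Nono also passed in DESeq2 (-0.14) and with numbers 1 and 2 only (-0.16), where the sign of Neat1 turned (0.24). The Ddx5 and Zrsr2 calls held under both other scalings, both other tools, both other filters and with numbers 1 and 2 only. Leaving out 1 library at a time gave 1128 to 2257 genes and 1 to 3 members. Over these 6 fits the log2 fold change ran from -0.29 to -0.24 for Zrsr2, -0.30 to -0.21 for Ddx5, -0.17 to -0.12 for Nono, -0.12 to -0.03 for Sfpq, -0.12 to 0.022 for Pspc1, 0.08 to 0.14 for Tardbp, -0.031 to 0.12 for Ddx17, -0.37 to 0.10 for Malat1 and -0.58 to 0.64 for Neat1. The log2 difference of the Sfpq/Nono ratio ran from -0.00013 to 0.14 and that of Neat1/Malat1 from -0.094 to 0.51, both turning sign without wild type replicate 2. Those of Ddx5/Ddx17 (-0.33 to -0.20), Zrsr2/Zrsr1 (-0.25 to -0.12) and Pspc1/Nono (0.0089 to 0.15) kept theirs.

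Counts of passing list members moved as follows. Of all tested genes 16.0% passed in the main fit, 30.5% with the block and 17.6% in DESeq2. With the block there were 10 other paraspeckle proteins, 5 long non-coding RNAs, 6 DEAD-box helicases, 4 minor spliceosome genes, 5 microprocessor and RNA end genes and 1 heat shock gene. DESeq2 gave 7 paraspeckle proteins. Total counts gave 1 long non-coding RNA, 0 minor spliceosome genes and 1 microprocessor gene. Numbers 1 and 2 only gave 2 paraspeckle proteins, 4 helicases, 2 minor spliceosome genes and 2 heat shock genes. On leaving out 1 library the counts were 1 to 5, 1 to 2, 0 to 4, 0 to 2 and 0 to 0 for the first 5 lists in that order, 0 to 3 for heat shock genes, 7 to 11 for immediate early genes and 0 to 1 for ribosomal protein genes. Of all tested genes 1128 to 2257 passed on leaving out 1 library, and 2413 of 13537 with numbers 1 and 2 only. The cause was not tested. The members had at least 1027 counts in each library, while some list genes had few, such as Meg3 with 14 to 46.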
